A study of Mus musculus with 6 samples.

Results

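The transcripts of 38 Polycomb, DNA methylation, TET and histone deacetylase genes were followed in the mouse embryonic pancreas between 13.5 and 15.5 days post coitum (dpc). The genes were chosen by name, for the complex or enzyme family they belong to, out of 37224 genes in the count table. All 38 were found and passed the filter on low counts. RNA was measured in 6 samples of wild-type (wt) C57/Bl6J pancreas, 3 from 13.5 dpc and 3 from 15.5 dpc, with no treatment and with the same genotype in both stages. Each sample pooled the pancreata of up to 3 embryos, and poly(A) RNA was sequenced from a single end in strand-specific libraries. The counts are therefore sums over all cell types of the organ, and fewer cells of a type cannot be told apart from less RNA per cell.

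Polycomb proteins keep genes silent through marks on histones. Polycomb repressive complex 2 (PRC2) methylates lysine 27 of histone H3 with EZH1 or EZH2 as its enzyme, whereas Polycomb repressive complex 1 (PRC1) ubiquitylates histone H2A and, in its canonical form, binds the PRC2 mark through a CBX protein. DNA methyltransferases place and maintain methyl groups on cytosine, TET enzymes oxidise them, and histone deacetylases (HDACs) remove acetyl groups from histones and act within corepressor complexes. In the pancreas, EZH2 is known for its part in endocrine progenitor development, and BMI1 for its part in adult beta cell proliferation.

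Total counts per sample ranged from 10546028 to 16389237, and the raw count of a member in a sample ranged from 20 (*Hdac9*) to 7552 (*Rbbp4*). Normalised counts are raw counts divided by the TMM-scaled library size and brought back to the scale of an average library. Levels are compared between genes only as counts per exon kilobase scaled by the same library sizes, called the level per length below. The labelled tissue was checked against its markers. The pancreatic transcription factor *Pdx1* had a mean normalised count of 1225 at 13.5 dpc and 1361 at 15.5 dpc. Of the pancreatic progenitor markers reported here, *Ptf1a* (log2 fold change 2.07) and *Gata4* (1.15) were higher at 15.5 dpc, *Sox9* (-0.67) and *Nkx6-1* (-0.39) were lower, and *Pdx1* did not pass the test. The 8 acinar markers were all higher at 15.5 dpc, with a summed level per length of 6009 to 7218 at 13.5 dpc and 43746 to 101226 at 15.5 dpc. No marker of the 10 cell type and proliferation lists was at 0 in any sample.

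Stages were compared with edgeR's quasi-likelihood test over the 15578 genes that passed the filter, and a gene was called at a Benjamini-Hochberg adjusted p at or below 0.05. Of the 38 genes, 4 were higher at 15.5 dpc, *Pcgf5*, *Rbbp7*, *Ezh1* and *Cbx6*, which is 10.5% of them, while 11.6% of all genes tested were called higher. Another 5, *Cbx2*, *Phc1*, *Dnmt3a*, *Rnf2* and *Ezh2*, were lower, which is 13.2%, against 10.7% of all genes tested. These shares are near the background, and 29 of the 38 genes did not pass the test. The thresholds of the study (adjusted p at or below 0.1, a normalised count above 100 in either stage and a fold below 0.6 or above 1.6) were passed by *Pcgf5* and *Cbx2*, 2 genes, and by 9.88% of all genes tested. The 13.5 and 15.5 dpc samples did not overlap in 17 of the 38 genes, or 44.7%, against 46.4% of all genes tested. The median log2 fold change was -0.21 over the 38 genes and -0.01 over all genes tested. A log2 fold change below 0 was seen for 28 genes and above 0 for 10, with a range from -0.84 to 0.83.

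**Figure D1:**
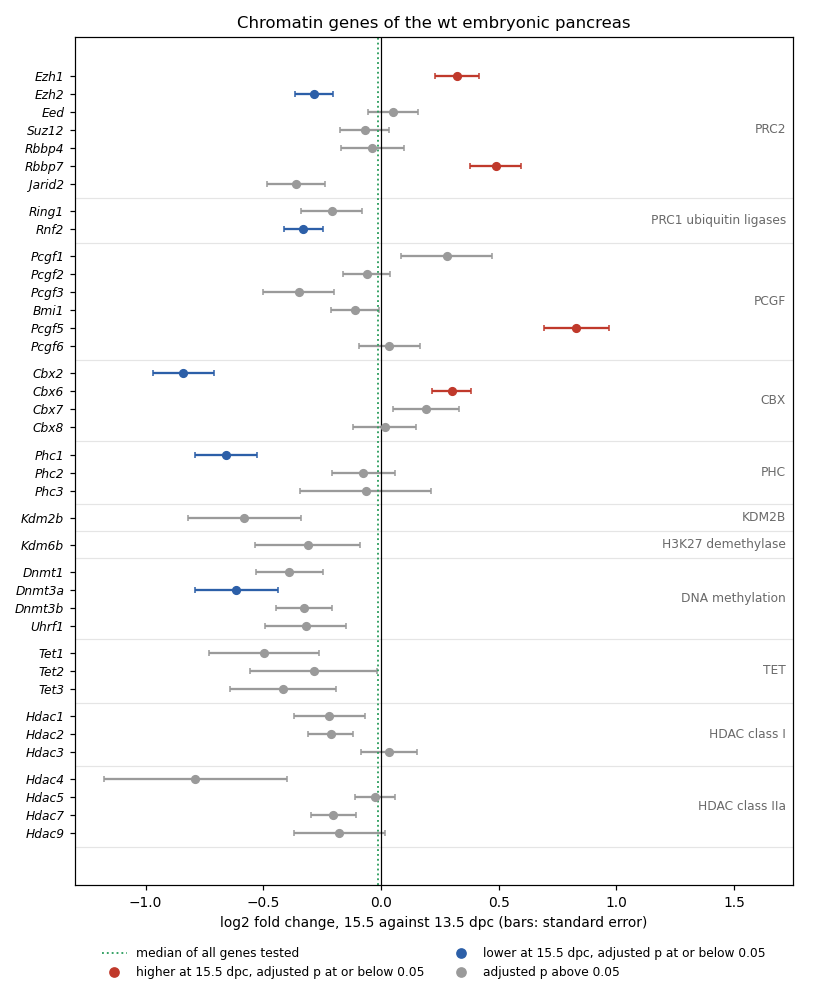
Log2 fold change from 13.5 to 15.5 dpc (x axis, bars are standard errors of the edgeR fit over 3 against 3 samples) for each of the 38 genes (y axis), grouped by complex or family. The 4 genes called higher (red) and the 5 called lower (blue) lie in the PRC2, PRC1 and DNA methylation groups, and no TET or HDAC gene shown here passed the test.

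Sequence upstream of the RefSeq start site is shown for 4 of the called genes. *Ezh1* and *Ezh2* encode the alternative enzymes of PRC2 and moved in opposite directions, *Rbbp7* has the highest level of the 38 genes and *Rnf2* encodes a ubiquitin ligase of PRC1. All 4 have a single promoter window in RefSeq (GRCm38.p6). Each line reads 5′ to 3′ on the strand of the gene and comes before that start site. Capitals mark the CCAAT box letters CCAAT, searched on both strands. The *Ezh1* window is chr11:101226464-101226713 on the minus strand, the *Rbbp7* window chrX:162760122-162760371 on the plus strand and the *Rnf2* window chr1:151500992-151501241 on the minus strand. For *Ezh2* the stretch outside annotated exons is shown, chr6:47595059-47595183 on the minus strand, which holds the first 2 of its 3 matches. The counted *Ezh2* model starts further upstream, at 47595341, so that this stretch lies within the gene as counted.
Ezh2: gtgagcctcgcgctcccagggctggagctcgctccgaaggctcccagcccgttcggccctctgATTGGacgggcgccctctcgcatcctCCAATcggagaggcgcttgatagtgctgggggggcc
Ezh1: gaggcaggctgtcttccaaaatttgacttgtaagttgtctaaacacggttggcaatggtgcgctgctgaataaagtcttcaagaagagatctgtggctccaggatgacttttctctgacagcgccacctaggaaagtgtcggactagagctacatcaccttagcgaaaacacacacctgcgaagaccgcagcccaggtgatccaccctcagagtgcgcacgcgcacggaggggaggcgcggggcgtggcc
Rbbp7: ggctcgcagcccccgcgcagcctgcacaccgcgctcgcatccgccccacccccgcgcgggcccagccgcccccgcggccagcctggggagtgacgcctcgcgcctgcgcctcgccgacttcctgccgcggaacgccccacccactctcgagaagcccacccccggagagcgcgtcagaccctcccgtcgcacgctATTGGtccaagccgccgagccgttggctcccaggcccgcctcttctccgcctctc
Rnf2: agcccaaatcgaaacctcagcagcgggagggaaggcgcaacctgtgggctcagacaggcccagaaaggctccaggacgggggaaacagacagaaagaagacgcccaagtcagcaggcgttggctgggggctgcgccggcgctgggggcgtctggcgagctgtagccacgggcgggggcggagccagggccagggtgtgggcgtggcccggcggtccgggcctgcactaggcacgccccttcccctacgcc

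The 250 bases before the RefSeq start held CCAAT 3 times for *Ezh2*, with the first base of the match at positions -90, -64 and -11, once for *Rbbp7* at -55, and not for *Ezh1* or *Rnf2*. Over the 50 windows of the 33 members that RefSeq lists, 19 held CCAAT, against 33.85% of all 32851 windows. The E2F-type letters TTTCCCGC or TTTGGCGC, searched on both strands, were in 1 member window, that of *Suz12*, which is 2.0%, against 1.3% of all windows. The median number of CpG dinucleotides was 21 in the member windows and 6 in all windows. These matches describe the letters in the windows and were not tested.

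In PRC2, *Ezh2* was called lower and *Ezh1*, its paralogue, was called higher at 15.5 dpc. *Ezh2* (chr6:47530274-47595341, mm10) had normalised counts of 1848, 1793 and 1706 at 13.5 dpc and 1461, 1468 and 1457 at 15.5 dpc in replicates 1, 2 and 3. All 3 samples at 15.5 dpc were below all 3 at 13.5 dpc, and the 15.5 dpc samples differed little among themselves. The log2 fold change was -0.29 ± 0.081 (SE), with an edgeR adjusted p of 0.0438. *Ezh1* (chr11:101191115-101226463), the paralogue with weaker methyltransferase activity that is known to prevail in non-dividing cells, had 381, 382 and 376 normalised counts at 13.5 dpc and 444, 494 and 486 at 15.5 dpc. The groups again did not overlap, and the log2 fold change was 0.32 ± 0.093 (SE) with an edgeR adjusted p of 0.0452. The level per length of *Ezh2* was 5.63 times that of *Ezh1* at 13.5 dpc and 3.70 times at 15.5 dpc, so that *Ezh1* made up 15.1% ± 0.42 (SD, n = 3) of the summed level of both at 13.5 dpc and 21.3% ± 0.93 at 15.5 dpc. The exact permutation test of this ratio did not pass (p = 0.1, adjusted p = 0.257, for which 3 against 3 samples cannot go lower than 0.1 before adjustment). Each of the 2 calls held in 7 of 16 alternative fits, and with the trend with exon length removed from each library the log2 fold change of *Ezh2* was -0.11 (edgeR adjusted p = 0.434).

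The histone-binding subunit genes *Rbbp4* and *Rbbp7* have products that PRC2 shares with other chromatin complexes. *Rbbp7* (chrX:162760402-162779092) had the highest level per length of the 38 genes at both stages, 106 ± 3.48 (SD) at 13.5 dpc and 149 ± 16.9 at 15.5 dpc. The samples had 3858, 4061 and 3824 normalised counts at 13.5 dpc and 6129, 4889 and 5436 at 15.5 dpc, with a log2 fold change of 0.49 ± 0.107 (SE) and an edgeR adjusted p of 0.0187. The groups did not overlap, although the 15.5 dpc samples were spread over a wider range. *Rbbp4* had a log2 fold change of -0.04 (edgeR adjusted p = 0.858), which was 0.27 with the length trend removed (adjusted p = 0.402), and overlapping samples. The core subunit genes *Eed* and *Suz12*, which are needed for the enzyme to be active, had log2 fold changes of 0.05 and -0.07 (edgeR adjusted p of 0.741 and 0.646). *Jarid2*, a cofactor that helps PRC2 to bind chromatin, had 1088, 1029 and 1105 normalised counts at 13.5 dpc and 709, 953 and 845 at 15.5 dpc. Its samples did not overlap, but the log2 fold change of -0.36 ± 0.123 (SE) did not pass the test (edgeR adjusted p = 0.0724). With the length trend removed it was -0.090 (edgeR adjusted p = 0.404).

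In PRC1, RNF2 (RING1B) and RING1 are the alternative ubiquitin ligase subunits. *Rnf2* (chr1:151469406-151500823) had 1172, 1165 and 1110 normalised counts at 13.5 dpc and 909, 905 and 928 at 15.5 dpc. The samples within a stage were close together and the stages did not overlap, with a log2 fold change of -0.33 ± 0.082 (SE) and an edgeR adjusted p of 0.0284. *Ring1* had 649, 679 and 660 normalised counts at 13.5 dpc and 591, 476 and 655 at 15.5 dpc. Its log2 fold change was -0.21 (edgeR adjusted p = 0.263) and its stages overlapped, since 15.5 dpc replicate 3 lay within the 13.5 dpc range.

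The PCGF proteins define the variants of PRC1, with PCGF2 and BMI1 (PCGF4) in canonical complexes and PCGF1, PCGF3, PCGF5 and PCGF6 in variant complexes. *Pcgf5* (chr19:36379067-36456192) was the member with the largest rise, from 69.25, 81.5 and 66.8 normalised counts at 13.5 dpc to 132.9, 128.8 and 124.7 at 15.5 dpc. All 15.5 dpc samples were well above the 13.5 dpc samples, and the fold was 1.78, or 0.83 ± 0.138 (SE) on the log2 scale, with an edgeR adjusted p of 0.00658. *Pcgf5* was nonetheless the PCGF gene with the lowest level per length, with 4.98% ± 0.52 (SD, n = 3) of the family's summed level at 13.5 dpc and 8.87% ± 0.17 at 15.5 dpc. The deposited exon model of *Pcgf5* covers 13.1% of the exon bases annotated in GENCODE M21, so that its level and its change refer to those exons. *Pcgf2* had the highest share, 32.7% ± 1.04 (SD, n = 3) at 13.5 dpc and 31.4% ± 1.66 at 15.5 dpc, with 980, 1013 and 1040 normalised counts followed by 1078, 911 and 920.5, which overlapped. *Pcgf1*, *Pcgf2*, *Pcgf3*, *Bmi1* and *Pcgf6* did not pass the test, with log2 fold changes between -0.35 (*Pcgf3*, edgeR adjusted p = 0.132) and 0.28 (*Pcgf1*, adjusted p = 0.312). With the length trend removed, *Pcgf3* was at -0.093 and *Pcgf1* at 0.056. Without 15.5 dpc replicate 1 they were at -0.20 and 0.067, and without 15.5 dpc replicate 2 at -0.48 and 0.45. *Pcgf3*, whose product is related to PCGF5, had samples that did not overlap, with 1372, 1374 and 1458 normalised counts at 13.5 dpc and 859, 1308 and 1128 at 15.5 dpc.

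The CBX proteins read methylated lysine 27 of histone H3 in canonical PRC1, and of the 4 genes listed here *Cbx2* was called lower and *Cbx6* higher. With TMM scaling, the summed level per length of *Cbx2*, *Cbx6*, *Cbx7* and *Cbx8* was between 61.2 and 64.3 in the 13.5 dpc samples and between 60.9 and 63.3 in the 15.5 dpc samples. *Cbx2* (chr11:119022962-119031270) had the largest fall of the 38 genes. The samples had 1072, 1041 and 1095 normalised counts at 13.5 dpc and 493, 683 and 613 at 15.5 dpc. The stages were far apart, and the fold was 0.559, or -0.84 ± 0.130 (SE) on the log2 scale, with an edgeR adjusted p of 0.00506. *Cbx6* (chr15:79823896-79834688) had 2752, 2915 and 2972 normalised counts at 13.5 dpc and 3523, 3523 and 3593 at 15.5 dpc, with a log2 fold change of 0.30 ± 0.082 (SE) and an edgeR adjusted p of 0.0388. The share of *Cbx2* in the summed level of the 4 genes was 31.8% ± 0.72 (SD, n = 3) at 13.5 dpc and 17.7% ± 2.53 at 15.5 dpc, and that of *Cbx6* was 57.9% ± 1.24 and 71.5% ± 1.36, shares that were not tested. With library size only as the scaling, the log2 fold changes of *Cbx2* and *Cbx6* were -1.04 and 0.09, and *Cbx6* was not called. Of the exon bases of *Cbx6*, 10.5% overlap exons of *Nptxr* and *Npcd* on the same strand, so that its counts are uncertain to that extent. *Cbx7*, the lowest of the family per length, had 140.3, 122.6 and 160.2 normalised counts at 13.5 dpc and 150.8, 163.6 and 168.7 at 15.5 dpc, which overlapped. *Cbx7* and *Cbx8* had log2 fold changes of 0.19 and 0.015 (edgeR adjusted p of 0.341 and 0.944).

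The PHC proteins polymerise through their SAM domain and cluster canonical PRC1. *Phc1* (chr6:122317731-122340561) had 1013, 989 and 1116 normalised counts at 13.5 dpc and 560.5, 771.0 and 640.9 at 15.5 dpc. The stages did not overlap, and the log2 fold change was -0.66 ± 0.133 (SE) with an edgeR adjusted p of 0.0139. *Phc2*, the PHC gene with the highest level per length, had 2626, 2503 and 2502 normalised counts at 13.5 dpc and 2884, 2045 and 2317 at 15.5 dpc, and *Phc3*, the lowest, had 363, 389 and 463 followed by 260.2, 574 and 322. Both overlapped between stages, with log2 fold changes of -0.08 and -0.07 (edgeR adjusted p of 0.699 and 0.880). The 3 samples at 15.5 dpc differed more among themselves in *Phc3* than the stages did.

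**Figure D2:**
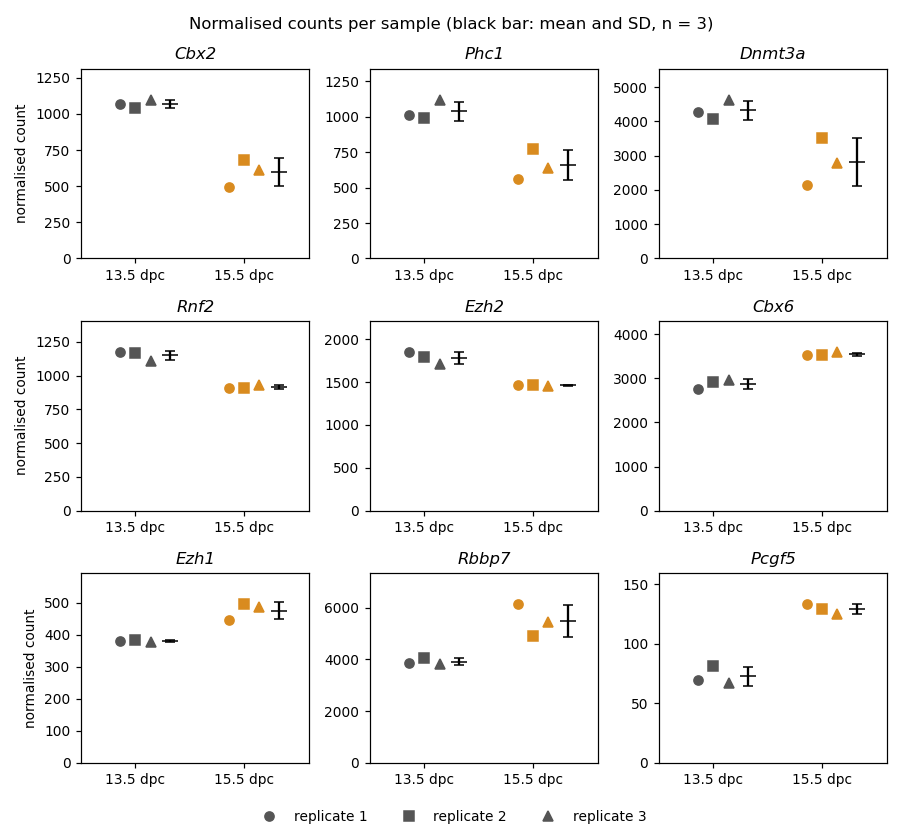
Normalised counts (y axis, from 0) of the 9 called genes in each sample at 13.5 dpc (grey) and 15.5 dpc (orange), with symbols for replicates 1 to 3 and a black bar for mean and SD (n = 3). In each panel the stages do not overlap, and the 15.5 dpc samples lie close together in *Ezh2*, *Rnf2*, *Cbx6* and *Pcgf5* but are spread in *Dnmt3a*, *Phc1* and *Cbx2*.

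*Kdm2b*, whose product recruits a variant PRC1 to unmethylated CpG islands, had 526.7, 498.1 and 530.1 normalised counts at 13.5 dpc and 217.3, 463.2 and 353.8 at 15.5 dpc. The stages did not overlap, but 15.5 dpc replicate 1 was lower than the other two and the log2 fold change of -0.58 ± 0.240 (SE) did not pass the test (edgeR adjusted p = 0.118). *Kdm6b*, which encodes an H3K27 demethylase and so opposes PRC2, had 1431, 1362 and 1684 normalised counts at 13.5 dpc and 849.7, 1619 and 1137 at 15.5 dpc. In *Kdm6b*, 15.5 dpc replicate 2 lay within the 13.5 dpc range, and the log2 fold change was -0.31 (edgeR adjusted p = 0.329).

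The 4 DNA methylation genes had log2 fold changes below 0, and 1 of them, *Dnmt3a*, passed the test. *Dnmt3a* (chr12:3806007-3914443), which encodes a de novo methyltransferase, had 4285, 4055 and 4615 normalised counts at 13.5 dpc and 2142, 3526 and 2790 at 15.5 dpc. The stages did not overlap, although the 15.5 dpc samples ranged widely, and the log2 fold change was -0.61 ± 0.176 (SE) with an edgeR adjusted p of 0.0441. *Dnmt3a* is the longest of the 38 genes, and with the length trend removed its log2 fold change was -0.24 (edgeR adjusted p = 0.044). Its call held in 11 of 16 alternative fits. *Dnmt1*, which encodes the maintenance methyltransferase, had the highest level per length of the group at 13.5 dpc (53.0, against 51.3 for *Uhrf1*) and nearly the same as *Uhrf1* at 15.5 dpc (40.5 and 41.1). The samples had 4156, 4047 and 4466 normalised counts at 13.5 dpc and 2696, 3885 and 3090 at 15.5 dpc, without overlap, and its log2 fold change of -0.39 ± 0.142 (SE) had an edgeR adjusted p of 0.087. *Dnmt3b*, the second de novo enzyme and the lowest of the group, had 358, 376 and 350 normalised counts at 13.5 dpc and 251, 320 and 292 at 15.5 dpc, also without overlap, with a log2 fold change of -0.33 and an edgeR adjusted p of 0.0863. *Uhrf1*, whose product brings DNMT1 to newly replicated DNA, had 2657, 2624 and 2998 normalised counts at 13.5 dpc and 1693, 2751 and 2186 at 15.5 dpc, which overlapped (log2 fold change -0.32, edgeR adjusted p = 0.21). Among the 3 methyltransferases, *Dnmt1* made up 67.0% ± 0.20 (SD, n = 3) of the summed level per length at 13.5 dpc and 69.5% ± 1.07 at 15.5 dpc.

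None of the 3 TET genes passed the test, none had an unadjusted edgeR p below 0.05 (0 of 3), and DESeq2 called 0 as well. Of all 15578 genes tested, 6090 had an unadjusted edgeR p below 0.05, and DESeq2 called 15.2% higher and 12.2% lower. *Tet3* had the highest level per length, with 1362, 1251 and 1524 normalised counts at 13.5 dpc and 738, 1420 and 937 at 15.5 dpc, and *Tet1* the lowest, with 358, 358 and 413 followed by 177, 360 and 259. In both genes, 15.5 dpc replicate 2 lay within the 13.5 dpc range and replicates 1 and 3 below it. The log2 fold changes of *Tet1*, *Tet2* and *Tet3* were -0.50, -0.29 and -0.42 (edgeR adjusted p of 0.159, 0.455 and 0.213). With the length trend removed they were -0.17, -0.064 and -0.15. The proportions of the 3 genes were similar at the stages, since *Tet3* made up 64.9% ± 0.68 (SD, n = 3) of their summed level per length at 13.5 dpc and 64.4% ± 1.09 at 15.5 dpc.

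None of the 7 histone deacetylase genes listed here passed the test, and none had an unadjusted edgeR p below 0.05 or was called by DESeq2 (0 of 7). Over all genes tested, 6090 of 15578 had such a p, and DESeq2 called 15.2% higher and 12.2% lower. Class I enzymes are widely expressed and carry most of the histone deacetylase activity of cells. *Hdac2* was the class I gene with the highest level per length, with 2680, 2637 and 2334 normalised counts at 13.5 dpc and 2303, 2057 and 2236 at 15.5 dpc. Its stages did not overlap by a small margin, and its log2 fold change was -0.21 (edgeR adjusted p = 0.147). *Hdac1*, the lowest of class I per length, had 834, 788 and 804.5 followed by 782, 539 and 767, without overlap (log2 fold change -0.22, edgeR adjusted p = 0.308). Of the 50-base windows of *Hdac1* transcripts, 35.3% also occur in other annotated genes, so that its unique counts are uncertain. The share was 16.7% for *Bmi1*, 15.4% for *Uhrf1*, 15.3% for *Pcgf1*, 9.8% for *Dnmt3b* and 7.0% for *Rbbp7*. *Hdac3* had a log2 fold change of 0.04 (edgeR adjusted p = 0.848). Class IIa enzymes shuttle between nucleus and cytoplasm and bind MEF2 factors, and HDAC4, HDAC5 and HDAC9 are known as regulators of endocrine cell numbers in the pancreas. *Hdac7* was the highest of class IIa per length, with 1048, 1111 and 1173 normalised counts at 13.5 dpc and 909, 1026 and 961 at 15.5 dpc, without overlap (log2 fold change -0.20, edgeR adjusted p = 0.155). *Hdac9* was the lowest gene of all 38 per length, with 42.8, 35.2 and 35.9 followed by 27.7, 36.8 and 35.3 (log2 fold change -0.18, edgeR adjusted p = 0.536). *Hdac4* had 180.4, 172.3 and 255.7 normalised counts at 13.5 dpc and 49.8, 176.9 and 120.9 at 15.5 dpc. Its log2 fold change of -0.79 had the largest standard error of the 38 genes, 0.387, and an edgeR adjusted p of 0.173. *Hdac5* had a log2 fold change of -0.03 (edgeR adjusted p = 0.842). The deposited exon models of *Hdac4* and *Hdac9* cover 24.9% and 30.2% of the exon bases in GENCODE M21, and those of *Pcgf6*, *Tet2*, *Eed*, *Cbx6*, *Tet3* and *Rnf2* cover 41.7% to 73.4%.

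Ratios between related genes within a sample do not depend on how the libraries were scaled. For 18 pairs, the log2 ratio of levels per length was compared between stages with an exact two-sided permutation test, for which 3 against 3 samples cannot give a p below 0.1. The stages did not overlap in 7 pairs, each with an exact p of 0.1 and an adjusted p of 0.257, so that no pair passed the test. *Pcgf5* over *Pcgf3* rose from -1.75 ± 0.19 (SD, n = 3) to -0.55 ± 0.34 on the log2 scale, a difference of 1.21, which was 0.75 with the trend with exon length removed from each library. *Cbx2* over *Cbx7* went from 3.54 ± 0.16 to 2.48 ± 0.18 (difference -1.05, and -1.16 with the trend removed), and *Ezh2* over *Ezh1* from 2.49 ± 0.05 to 1.89 ± 0.08. The other 4 pairs without overlap were *Phc1* over *Phc2* (difference -0.58, and -0.66 with the trend removed), *Rbbp4* over *Rbbp7* (-0.53 and -0.24), *Dnmt1* over *Dnmt3a* (0.24 and 0.01) and *Hdac3* over *Hdac2* (0.24 and 0.21). The ratios among TET genes and of *Rnf2* over *Ring1* overlapped between stages.

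**Figure D3:**
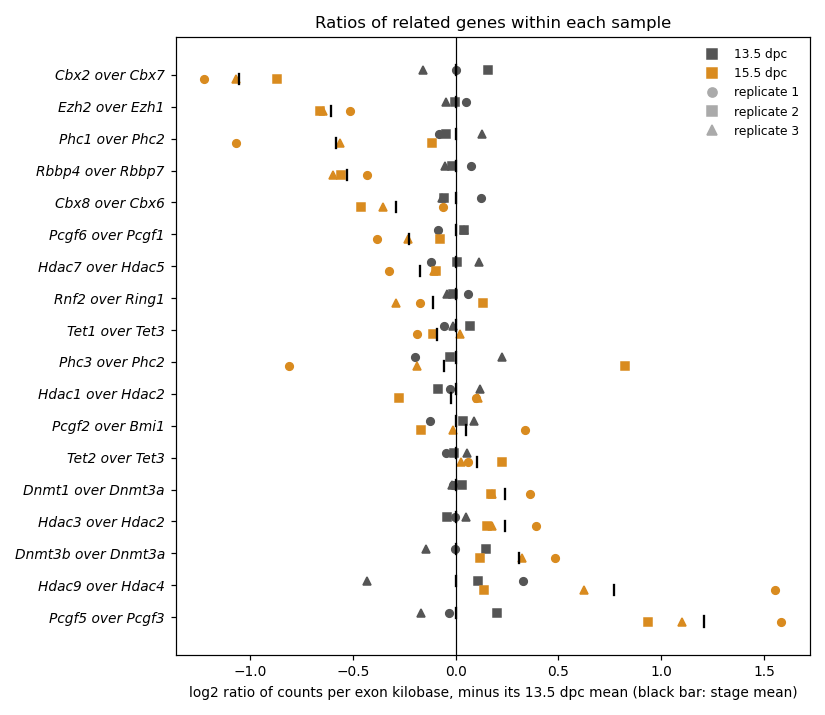
Log2 ratio of counts per exon kilobase within each sample for 18 pairs of related genes, minus the mean of the 13.5 dpc samples (x axis), at 13.5 dpc (grey) and 15.5 dpc (orange), with symbols for replicates and black bars for stage means. Stages are separated in 7 pairs, with *Pcgf5* over *Pcgf3* at one end and *Cbx2* over *Cbx7* at the other, in values from which no length trend was removed.

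Some samples of one stage differed from each other with the length of the transcript, at both stages. The coefficient of variation of normalised counts had a median over the 38 genes of 4.59% at 13.5 dpc and 14.9% at 15.5 dpc, and it was larger at 15.5 dpc in 32 genes. At 15.5 dpc, replicate 1 was the lowest sample in 21 genes and replicate 2 the highest in 21 genes. Across the 38 genes, which share the same 6 libraries, Spearman's rho of exon length was -0.601 with the log2 difference of 15.5 dpc replicate 1 from replicate 2 and -0.405 with the stage fold change. Over all genes tested the values were -0.589 and -0.358. At 13.5 dpc, rho was -0.54 over the 38 genes for replicate 2 against replicate 3 and -0.41 for replicate 1 against replicate 3 (-0.312 and -0.325 over all genes tested). For 13.5 dpc replicate 1 against replicate 2 it was 0.23 over the 38 genes and -0.029 over all genes tested. The 38 genes had a median exon length of 5201.5 bases against 3470.5 bases for all genes tested. The median log2 fold change was -0.29 in the 19 longer genes and -0.11 in the 19 shorter ones. With a lowess trend with length removed from each library, these medians were -0.09 and -0.09, and that of all 38 genes -0.09. The trend was fitted without regard to stage, so that its removal also takes out stage changes that go with length. The part of gene length in the differences between stages was therefore not tested.

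**Figure D4:**
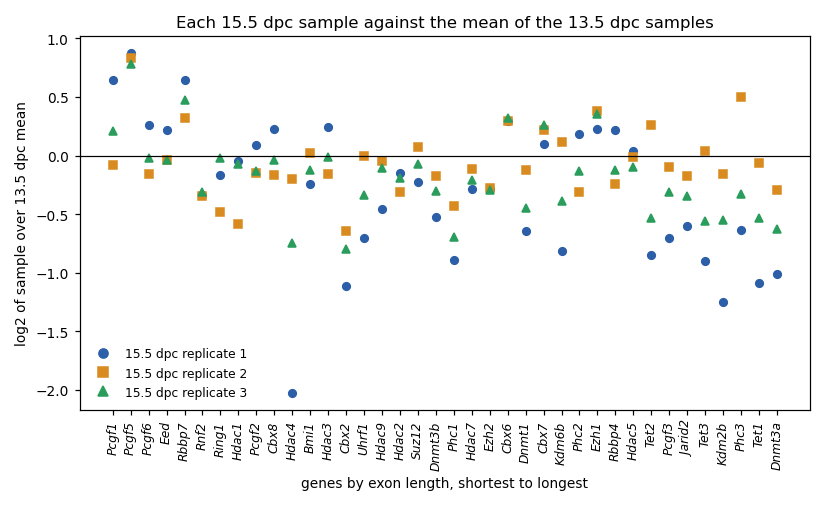
Log2 of the normalised count in each 15.5 dpc sample over the mean of the 13.5 dpc samples (y axis) for the 38 genes, ordered by exon length from the shortest (1471 bases) to the longest (16642 bases). Replicate 1 (blue circles) tends to lie above replicate 2 (orange squares) among the shorter genes and below it among the longer ones.

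With the length trend removed, 4 of the 38 genes were called higher and 5 lower, while 17.4% of all genes were called higher and 15.1% lower. *Cbx2* (log2 fold change -0.77), *Pcgf5* (0.66), *Phc1* (-0.54), *Rbbp7* (0.45), *Rnf2* (-0.35), *Cbx6* (0.48), *Ezh1* (0.54) and *Dnmt3a* (-0.24) passed the edgeR test in both fits. *Ezh2* did not pass with the trend removed (-0.11, edgeR adjusted p = 0.434). *Dnmt1* passed only with the trend removed (-0.23, edgeR adjusted p = 0.043, against 0.087 without a length term). The difference in the ratio of *Ezh2* over *Ezh1*, with exon lengths of 6197 and 7440 bases, was -0.61 without and -0.65 with the trend removed.

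**Figure D5:**
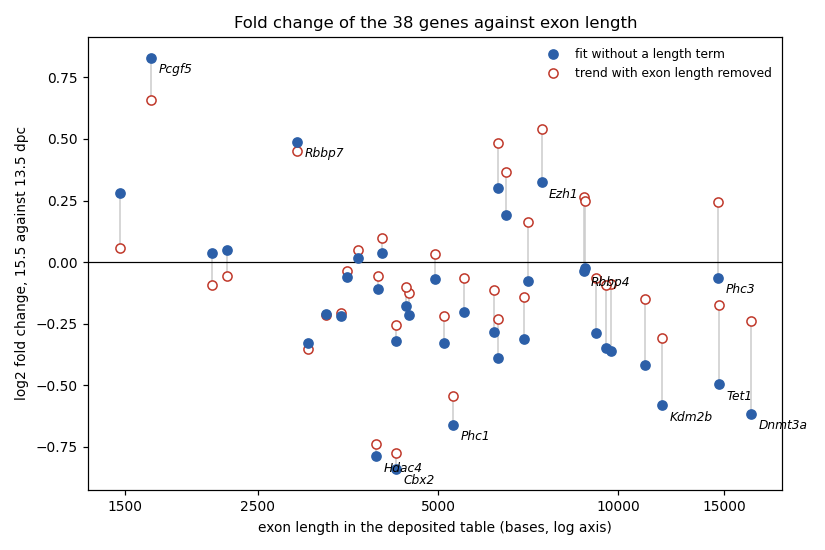
Log2 fold change of each of the 38 genes (y axis) against its exon length in bases (x axis, log scale), without a length term (filled) and with the length trend of each library removed (open), joined by a line. The longer genes move upward, as in *Dnmt3a* from -0.61 to -0.24 and *Phc3* from -0.07 to 0.24, while *Cbx2* goes from -0.84 to -0.77.

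Calls depended on which sample was left out. *Pcgf5* and *Cbx2* were called in each of the 16 alternative fits, *Rbbp7* and *Phc1* in 12, *Rnf2* and *Dnmt3a* in 11, *Cbx6* in 8 and *Ezh1* and *Ezh2* in 7. *Rbbp7*, *Phc1*, *Rnf2*, *Dnmt3a*, *Cbx6*, *Ezh1* and *Ezh2* lost their call without 13.5 dpc replicate 1, 2 or 3, or without 15.5 dpc replicate 3, which left 1 higher and 1 lower gene each time. In these 4 fits the share of all genes called was also smaller, 4.54% to 5.40% higher and 3.29% to 3.84% lower. The log2 fold changes were close to those with all samples, as in *Rbbp7* (0.47 to 0.51), *Phc1* (-0.70 to -0.61), *Ezh1* (0.31 to 0.33) and *Ezh2* (-0.32 to -0.26). Without 15.5 dpc replicate 2, 17 genes were called lower and 5 higher, while 23.3% of all genes tested were called lower and 24.7% higher, and the 13 genes gained were *Jarid2*, *Pcgf1*, *Pcgf3*, *Phc3*, *Kdm2b*, *Kdm6b*, *Dnmt1*, *Dnmt3b*, *Uhrf1*, *Tet1*, *Tet2*, *Tet3* and *Hdac4*. The log2 fold changes of *Tet1*, *Tet2* and *Tet3* were -0.77, -0.67 and -0.71 without 15.5 dpc replicate 2, and -0.27, -0.071 and -0.22 without replicate 1, where none passed the test. Those without replicate 2 and without replicate 1 were -1.22 and -0.44 for *Hdac4*, -0.57 and -0.11 for *Kdm6b*, -0.49 and -0.16 for *Uhrf1* and -0.84 and -0.34 for *Kdm2b*. Without 15.5 dpc replicate 1, the called genes were the same 9, while 14.1% of all genes were called higher and 12.8% lower. DESeq2 on all 6 samples also called the same 9, while it called 15.2% of all genes higher and 12.2% lower.

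Some markers of cell types were called between the same stages, and their part in the results was not tested. Of all genes tested, 11.6% were called higher and 10.7% lower. These shares were 15.2% and 12.2% with DESeq2, and 17.4% and 15.1% with the length trend removed. An unadjusted edgeR p below 0.05 was seen for 6090 of the 15578 genes tested. Of 18 proliferation genes, 3 were higher (16.7%) and 1 lower (5.56%) at 15.5 dpc, and 6 and 1 both with DESeq2 and with the length trend removed. Their summed level per length was 885 to 906 at 13.5 dpc and 914 to 949 at 15.5 dpc. Of 10 mesenchyme markers, 2 were higher and 3 lower (1547 to 1703 and 1256 to 1643). Of 6 epithelium markers, 4 were higher (987 to 1027 and 1287 to 1861), and of 10 endocrine markers, 3 were higher and 2 lower (1440 to 1562 and 1808 to 3312). Of 7 erythroid markers, 1 was higher and 4 lower (1138 to 1412 and 61.6 to 82.4), and of 6 neural and glial markers, 1 was higher and 3 lower (32.1 to 34.3 and 28.3 to 33.7). No endothelium marker of 6 was called, none had an unadjusted p below 0.05 and DESeq2 called 0, while 1 was higher with the length trend removed (91.2 to 100 and 85.9 to 108). Of 6 immune markers, 1 was lower, or 16.7% (71.0 to 80.3 and 68.1 to 111). In 8 of the 10 lists, proliferation included, 15.5 dpc replicate 1 had the highest sum of the 15.5 dpc samples, and in the mesenchyme and endothelium lists it had the lowest.

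Other genes of the same pathways, outside the 38, gave further counts. Of 17 other Polycomb and PR-DUB genes, 2 were lower and none higher, with a median log2 fold change of -0.23. With the length trend removed, 6 were lower and 4 higher, against 15.1% and 17.4% of all genes in that fit. The 2 lower genes of the fit without a length term are 11.8% of the list, near the 10.7% of all genes tested that were called lower. They were *Scmh1*, a PRC1-associated gene (648, 678 and 644 normalised counts at 13.5 dpc and 412, 447 and 448 at 15.5 dpc, log2 fold change -0.59, edgeR adjusted p = 0.005), and *Auts2*, whose product joins a PCGF3 or PCGF5 complex (709, 712 and 782 followed by 313, 499 and 412, log2 fold change -0.84, edgeR adjusted p = 0.013). Neither overlapped between stages. Of 14 other DNA methylation genes, 13 were tested, with 3 higher (23.1%, against 11.6% of all genes tested), 1 lower (7.69%, against 10.7%) and a median of -0.06. *Gadd45b* (log2 fold change 1.76), *Idh2* (0.61) and the methyl-CpG binding gene *Mbd2* (0.45) rose, and *Gadd45a* fell by 0.67. Of 19 other deacetylases and corepressors, 2 were higher (10.5%, against 11.6% of all genes tested), *Hdac11* (0.69) and *Hdac10* (0.36). Another 1 was lower (5.26%, against 10.7%), the NuRD remodeller gene *Chd3* (-0.68), and the median was -0.19. With the length trend removed, 3 were higher and 2 lower, against 17.4% and 15.1% of all genes. None of 14 trithorax genes, which oppose Polycomb, passed the edgeR test, with a median of -0.08. An unadjusted edgeR p below 0.05 was seen for 3 of them, against 6090 of all 15578 genes tested. DESeq2 called 1 lower, against 12.2% of all genes. With the length trend removed, 1 was higher and 1 lower, against 17.4% and 15.1% of all genes.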

How the data were processed

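Poly(A) RNA of wt mouse pancreas was sequenced in 6 samples, 3 from 13.5 dpc and 3 from 15.5 dpc. The authors demultiplexed reads with bcl2fastq 1.8.4, aligned them to mm10 with GSNAP and used featureCounts on Ensembl genes for reads that aligned uniquely, version 1.4.6. The table they deposited holds the unnormalised count of each gene and its exon length. The strand setting of the counting is not given in the sources used here. Total counts were 10546028 to 16389237, so that genes with few counts, such as *Hdac9*, carry the largest counting error.

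Symbols and coordinates come from GENCODE M21 (mm10) by Ensembl identifier, with 35449 of 37224 matched, and promoter sequences from the RefSeq table (GRCm38.p6), in which 33 of the 38 genes matched. All 6 columns of per-sample values were used and 0 were left out. Counts were filtered with filterByExpr, scaled with TMM factors and tested in R 4.3.3 with edgeR 4.0.16 (quasi-likelihood, no covariates, Benjamini-Hochberg over 15578 genes). A standard error is the absolute log2 fold change divided by the square root of F. The study used DESeq2, which was run as an alternative (1.42.0). Exact permutation tests and figures used Python 3.11.15 and scipy 1.17.1. The fits were tested on simulated counts. Uncertain counts were marked by 50-base windows shared between transcripts.

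The 38 genes, pathway lists and cell type markers were chosen with earlier results of these data known. All 38 are named. Per-sample values are given for called genes, for the highest and lowest per length of each group and, chosen after their values were seen, for *Jarid2*, *Pcgf3* and *Hdac4*. Of the other lists, up to 4 called genes with the largest changes are named. Alternatives were library size only, DESeq2's size factors, upper quartile scaling, DESeq2, no filter or at least 10 counts in every sample, a replicate block, removal of a lowess length trend (span 0.5) with and without that block, removal of genes above 1% of counts, leaving out one sample at a time, an adjusted p of 0.01 and a fold below 0.5 or above 2. The result of a marker gene is not reported here.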

Additional observations from a re-analysis of the deposited data

How the results depend on the processing

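Over 608 comparisons of a gene's fold change with an alternative, 508 kept direction and side of the threshold, 44 lost a call, 21 gained one and 35 changed sign, all in genes without a call. With library size only, which moved the median of all genes to -0.22, 2 genes were higher, 12 lower and 4 past the study's thresholds (7.27%, 18.9% and 11.0% of all genes), with a median of -0.42, and the values of *Eed*, *Pcgf6*, *Cbx7*, *Cbx8* and *Hdac3* were -0.17, -0.19, -0.018, -0.21 and -0.19. *Cbx8* was -0.017 with upper quartile scaling and -0.010 with no filter, and each of these left 2 genes higher (10.7% and 7.34% of all genes).

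With the length trend removed, 1 gene passed the study's thresholds (8.38% of all genes) and the median was -0.091, with *Eed*, *Suz12*, *Rbbp4*, *Pcgf6*, *Phc2*, *Phc3* and *Hdac5* at -0.058, 0.035, 0.27, -0.092, 0.16, 0.24 and 0.25. With the trend removed and a replicate block, 3 genes were lower (12.6% of all genes), the median was -0.091 and these genes were at -0.059, 0.035, 0.21, -0.093, 0.12, 0.23 and 0.23. The replicate block alone left 2 genes higher and 3 lower (9.15% and 8.02% of all genes). The correlations between stages of samples of one number, as deviations from the stage means, were 0.211, -0.209 and 0.034. Those of samples with different numbers ranged from -0.359 to 0.373. With 3 samples per stage, these values cannot decide whether samples of one number share a batch, which was not tested.

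An adjusted p of 0.01 left 1 higher and 1 lower gene (4.8% and 3.4% of all genes), and a fold below 0.5 or above 2 left 0 (4.74%). Leaving out each sample gave 1 to 5 genes higher, 1 to 17 lower, 1 to 7 past the study's thresholds and medians of -0.21 to -0.16. Over all genes, 4.54% to 24.7% were higher, 3.29% to 23.3% lower and 7.14% to 16.1% past the study's thresholds. In these leave-out fits the sign changed for *Eed* (-0.036 to 0.11), *Suz12* (-0.13 to 0.0060), *Rbbp4* (-0.18 to 0.069), *Pcgf6* (-0.089 to 0.14), *Cbx8* (-0.10 to 0.12), *Phc2* (-0.22 to 0.045), *Phc3* (-0.46 to 0.15), *Hdac3* (-0.079 to 0.14) and *Hdac5* (-0.056 to 0.011). The cause was not tested. Of 126 comparisons of ratio differences, 114 kept their sign and moved by at most 1 SD, 4 moved more and 8 changed sign. The sign changes were in *Phc3* over *Phc2* (0.11 with the length trend removed, -0.50 to 0.32 with one sample left out), *Pcgf2* over *Bmi1* (-0.091 to 0.16) and *Hdac1* over *Hdac2* (-0.091 to 0.10), pairs whose stages overlapped.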
